A study of Homo sapiens with 9 samples.

Results

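The DNA replication and G1/S genes described here are 45 genes that build the replication fork or drive entry into S phase. They were named in a list and matched by symbol in the authors' filtered matrix, where 45 of 45 were found among 18859 genes. The list was chosen with earlier results of these data known. Its counts beside those of all genes therefore describe the list and do not test it. ACHN, an established human renal carcinoma cell line grown in MEM, was treated with piericidin A, a natural product that inhibits respiratory complex I, at a dose of 25 nM or of 50 nM; the control cells had 0.1% DMSO. RNA was sequenced from 3 libraries per group, 9 in all; whether the piericidin A cells also held DMSO is not stated. The labels do not say that the 3 libraries of a group were separate experiments, so the p-values measure the spread between these libraries, which may be technical. All groups are this single line, and the design sets each dose beside DMSO and the doses beside each other.

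Replication starts when the origin recognition complex, CDC6 and CDT1 load the MCM2-7 helicase onto DNA in G1. Cyclin E with CDK2, and the DBF4-dependent kinase, then turn the loaded helicase into the active CDC45-MCM-GINS motor, behind which the polymerases, the PCNA clamp and the nucleotide-supplying enzymes copy the strands. Many of these genes are targets of the E2F transcription factors, which the retinoblastoma proteins hold in check until G1 cyclin kinases act, and they are usually read as a sign of cells entering S phase. In bulk RNA, fewer cells in S phase and less RNA per cell cannot be told apart.

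Values are FPKM (fragments scaled to gene length and depth), gene positions are those deposited (hg38), and a log2 fold change (log2FC) is on the log2(FPKM + 0.1) scale with its standard error (SE) from limma. A gene was called at a Benjamini-Hochberg adjusted p under 0.05 over the 15541 genes that reached 0.5 FPKM in 3 or more libraries. Of the 45 genes, 44 passed that filter; CCNE2, at 0.220 to 0.454 FPKM, did not. Depth was 24365472 to 29245674 fragments per library, recovered from the FPKM of the 18859 genes with a length, so fragments of other genes are left out. Replicate 3 at 25 nM stood apart from its group: the chi-square per gene of recovered fragments was 17.2 and 19.6 against replicates 1 and 2, where it was 2.48 between those, 1.79 to 2.50 in DMSO and 5.09 to 8.49 at 50 nM. The 7 renal carcinoma markers (PAX8, PAX2, KRT8, KRT18, EPCAM, CDH2 and VIM) were all above 1 FPKM in each group. PTPRC, CD3E, KDR and HBA1 were not listed, and summed leukocyte markers stayed at or below 0.233 FPKM and endothelial markers at or below 0.0303 FPKM in every library. Fibroblast markers summed to 2.52 to 2.65 FPKM in DMSO, 2.32 to 2.64 at 25 nM and 3.08 to 3.92 at 50 nM, with 1 of 5 above 1 FPKM; their part in the results was not tested.

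In DMSO, the 45 genes spanned from PCNA at 86.2 ± 2.40 FPKM to CCNE2 at 0.395 ± 0.0539 FPKM (SD, n = 3). The thymidine kinase TK1 followed PCNA at 70.7 ± 1.48 FPKM, then the helicase subunit MCM7 at 49.9 ± 0.122 and cyclin D1 (CCND1) at 43.4 ± 0.694 FPKM. PCNA, TK1 and MCM7 kept ranks 1, 2 and 3 at both doses. GINS3 (1.09 ± 0.0898 FPKM) and POLE2 (1.79 ± 0.139 FPKM) were the lowest of the tested genes. The summed FPKM of the 45 genes was 722, 712 and 719 in DMSO, 777, 779 and 835 at 25 nM and 664, 691 and 681 at 50 nM. Total FPKM was itself higher in every treated library. It ranged from 249274 to 255396 in DMSO, 278870 to 310119 with 25 nM, and 276520 to 293816 with 50 nM. A higher sum of the 45 genes is therefore not by itself a larger share of the total. Their share of total FPKM was smaller in every treated library than in any DMSO library, a difference that was not tested.

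At 25 nM, replication genes stood mostly above DMSO. Of 44 tested, 23 rose and 4 fell, against 26.3% of all tested genes that rose and 25.8% that fell. The kinase CDK2 (log2FC 0.71), the helicase cofactor CDC45 (log2FC 0.60) and the licensing inhibitor geminin (GMNN, log2FC 0.43) had the largest rises. RFC1 (log2FC -0.41), FEN1 (log2FC -0.28), MCM6 (log2FC -0.15) and RPA1 (log2FC -0.15) were the 4 that fell. The median log2FC was 0.18 over the 44 genes and 0.02 over all 15541 genes. In 26 genes the 3 libraries at 25 nM lay above all 3 DMSO libraries, and in 5 below, against 31.5% and 31.1% of all tested genes. The median of the 44 genes against the DMSO mean was 0.14, 0.13 and 0.23 (log2) in replicates 1 to 3; without replicate 3, 20 rose and 4 fell, with a median log2FC of 0.12.

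At 50 nM the same 44 genes went both ways, in shares near those of all tested genes. Against DMSO, 11 rose (25%) and 16 fell (36.4%), where 29.2% and 31.5% of all tested genes did. The median log2FC was -0.02 against 0.00 over all genes. CDK2 (log2FC 0.61), POLE (log2FC 0.52), GINS4 (log2FC 0.51), CDC45 (log2FC 0.39) and ORC6 (log2FC 0.39) stood highest. FEN1 (log2FC -0.61), RFC1 (log2FC -0.60), MCM6 (log2FC -0.50) and ORC1 (log2FC -0.47) stood lowest. All 3 libraries at 50 nM were above DMSO in 12 genes and below it in 18, against 33.9% and 36.5% of all tested genes. The median took the other sign under 4 other scalings (highest 0.05, by fragment totals) and without DMSO replicate 3 (0.00). The all-gene median moved with the scaling too. It was 0.07 by fragment totals and by upper quartile, -0.07 by quantile normalization and -0.01 with the length trend removed.

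From 25 to 50 nM, replication genes fell broadly. Of 44 tested, 26 fell and 1 (POLE) rose, while 18.8% of all tested genes fell and 14.7% rose. The ribonucleotide reductase subunits RRM2 (log2FC -0.54) and RRM1 (log2FC -0.48) and the origin subunit ORC1 (log2FC -0.53) fell most, and the median log2FC was -0.21 against -0.01 over all genes. The 50 nM libraries lay below all 25 nM libraries in 31 genes and above them in 2, against 24.4% and 21.0% of all tested genes. With libraries scaled by fragment totals, 15 fell and 2 rose, where 8.74% and 20.3% of all genes did, and 11 genes lost their call (CDC45, CDT1, GMNN, MCM5, MCM10, RFC1, RFC2, RFC5, RPA1, FEN1 and CCND1). The 3 comparisons share libraries, so a high 25 nM library moves both comparisons that hold it; the values of each are given side by side below.

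**Figure D1:**
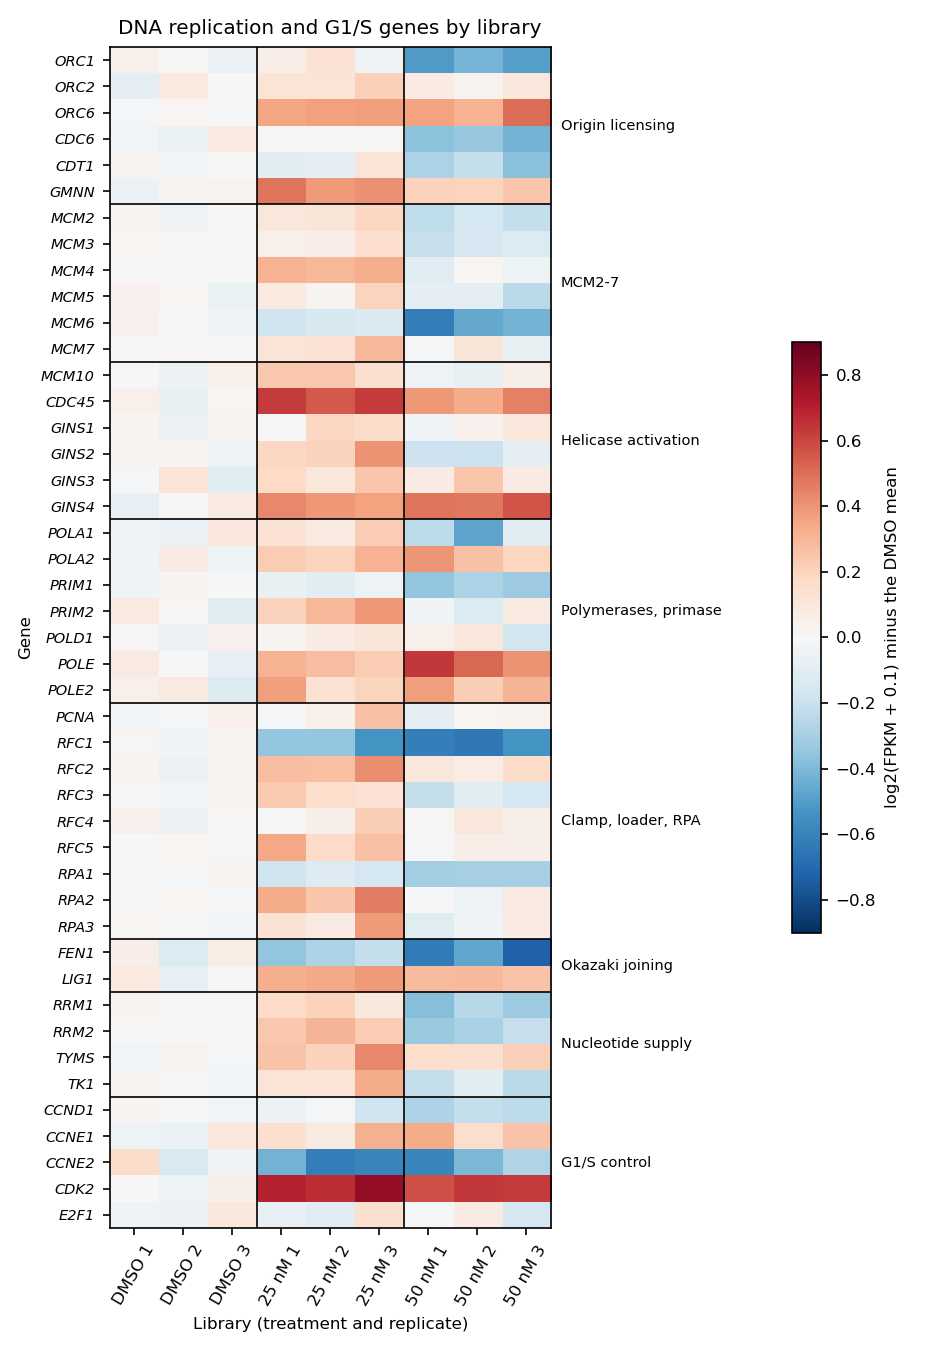
Log2(FPKM + 0.1) of the 45 genes (rows, by role) in the 9 libraries (columns), as the difference from the mean of the 3 DMSO libraries; red is higher, blue lower. Most rows are red in the 25 nM columns, and the 50 nM columns divide into red rows such as CDK2, GINS4 and POLE and blue rows such as ORC1, MCM6, RFC1 and FEN1.

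The calls at the 2 doses sort the genes into a few patterns. Of all tested genes, 52% were called at 25 nM, 60.7% at 50 nM and 33.5% between the doses. How many of them show each pattern was not counted, so the patterns describe only the listed genes. In 9 genes both doses were called higher than DMSO: ORC6, GINS4, POLA2, LIG1, TYMS, CDK2, POLE, GMNN and CDC45, of which GMNN and CDC45 were called lower at 50 than at 25 nM. With the length trend removed, neither GMNN nor CDC45 was called between the doses (log2FC -0.14 each, adjusted p = 0.0658 and 0.0622). In 5 genes (MCM2, RFC3, RRM1, RRM2 and TK1) the 25 nM libraries were called higher and the 50 nM libraries lower than DMSO. In 4 genes (MCM6, RFC1, RPA1 and FEN1) both doses were called lower, and lower still at 50 nM. A further 7 (ORC1, CDC6, CDT1, MCM3, POLA1, PRIM1 and CCND1) were called lower at 50 nM against each of the other groups and not called at 25 nM. Another 7 (MCM4, MCM10, GINS2, PRIM2, RFC2, RFC5 and RPA2) were called higher at 25 nM than in DMSO and lower at 50 than at 25 nM. At 50 nM these were not called against DMSO. ORC2 and MCM7 were called only as higher at 25 nM than in DMSO. POLE2 and CCNE1 were called only as higher at 50 nM than in DMSO, and MCM5 only as lower at 50 than at 25 nM. In 7 genes (GINS1, GINS3, POLD1, PCNA, RFC4, RPA3 and E2F1) no comparison was called.

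**Figure D2:**
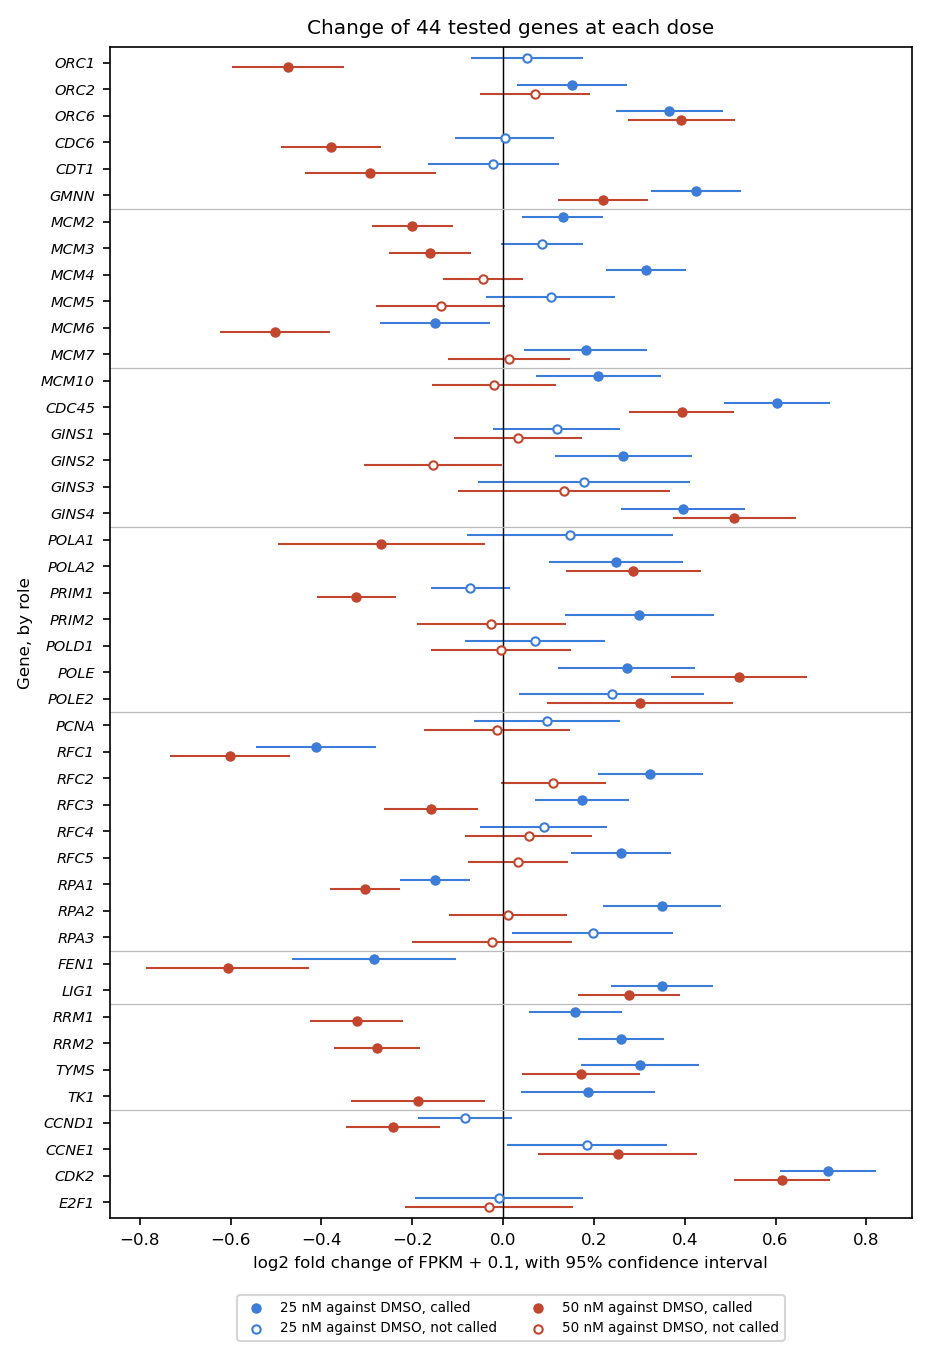
Log2 fold change against DMSO of the 44 tested genes (by role) at 25 nM (blue) and 50 nM (red), with the 95% confidence interval of the limma fit; filled points are called at an adjusted p under 0.05. CDK2 lies at 0.71 and 0.61, and RRM2 lies at 0.26 and -0.28, on opposite sides of 0.

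Because many of these genes are known E2F targets, their promoters were searched for the E2F-type words TTTGGCGC, TTTCCCGC, TTTCGCGC and TTTGCCGC on both strands, in the 250 bases before each RefSeq start (GRCh38.p14). RefSeq promoters matched 37 of the 45 genes, and 14 of these (37.8%) held at least 1 word, against 928 of 27305 gene symbols (3.4%). The symbols were not limited to genes that are coding or expressed here, so the shares come from unlike sets. Alone, the words were in 0.68%, 1.7%, 0.54% and 0.59% of all symbols, in that order. The 6 with a word and the smallest adjusted p against DMSO are shown 5′ to 3′ on the gene's strand, to let the words be read in place; capitals mark them. In MCM6 the word TTTGGCGC runs into a TTTCGCGC on the other strand, so that 4 matches form 2 blocks. In POLE, LIG1, TYMS and CDT1 the stretch touches an exon of GENCODE release 29, and at most 30 bases are given.
MCM6 (chr2:135876492-135876625, minus strand): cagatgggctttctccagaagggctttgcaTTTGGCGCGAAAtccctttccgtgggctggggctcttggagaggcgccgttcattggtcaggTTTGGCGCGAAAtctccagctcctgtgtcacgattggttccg
GMNN (chr6:24775303-24775370, plus strand): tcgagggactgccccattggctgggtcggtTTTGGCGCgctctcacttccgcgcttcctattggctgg
POLE (chr12:132687343-132687371, minus strand): tgggtgggagcGCGCCAAAtttctcccct
LIG1 (chr19:48170440-48170469, minus strand): acttcacccctTTTCCCGCcctcctcccat
TYMS (chr18:657603-657632, plus strand): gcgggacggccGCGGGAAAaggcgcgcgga
CDT1 (chr16:88803743-88803772, plus strand): ccagggcgcccGCGGGAAAtttggcgggaa
At 50 nM, these 6 genes went both ways: GMNN, POLE, LIG1 and TYMS were called higher than DMSO, and MCM6 and CDT1 lower. Of the 14 genes with a word, 8 rose and 1 fell at 25 nM, and 5 rose and 5 fell at 50 nM. Of the 23 genes whose promoter held none, 11 rose and 3 fell at 25 nM, and 4 rose and 10 fell at 50 nM. The median log2FC with and without a word was 0.18 and 0.16 at 25 nM, and -0.02 in both sets at 50 nM. From 25 to 50 nM, 7 of 14 and 15 of 23 fell. A match is a description of the letters and not of a bound site.

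Among the origin licensing genes, ORC6 and GMNN stood above DMSO at both doses, while ORC1, CDC6 and CDT1 stood below it at 50 nM only. ORC1, the subunit of the origin recognition complex that leaves it after the start of S phase (ENSG00000085840, chromosome 1, 52372829-52404459), was at 8.61, 8.41 and 8.03 FPKM in DMSO, 8.69, 9.15 and 8.17 with 25 nM and 5.84, 6.23 and 5.89 with 50 nM. All 50 nM libraries were below the other 6, which overlap, and the fall was called against DMSO (log2FC -0.47, SE 0.05, adjusted p = 7.76e-05). CDC6, which joins the complex to load the helicase, was at 7.51, 7.31 and 8.08 FPKM in DMSO, 7.64, 7.63 and 7.67 with 25 nM and 5.89, 5.99 and 5.66 with 50 nM. CDT1, the partner of CDC6 in loading, was at 27.0, 26.0 and 26.3 FPKM in DMSO, 24.7, 24.9 and 28.7 with 25 nM and 21.7, 22.7 and 20.3 with 50 nM. Both were lower in each 50 nM library than in any other library (CDC6 log2FC -0.38, SE 0.05, adjusted p = 0.000151; CDT1 log2FC -0.29, SE 0.06, adjusted p = 0.00338), and the DMSO and 25 nM libraries overlapped. ORC6, the smallest subunit, was at 6.15, 6.32 and 6.24 FPKM in DMSO, 7.99, 8.06 and 8.14 with 25 nM and 8.04, 7.78 and 8.86 with 50 nM. Its treated libraries were all above DMSO (log2FC 0.37, SE 0.05, adjusted p = 0.000425 at 25 nM and log2FC 0.39, SE 0.05, adjusted p = 0.000183 at 50 nM), and the doses overlapped. GMNN, which binds CDT1 and blocks reloading within a cycle, was at 9.04, 9.55 and 9.63 FPKM in DMSO, 13.2, 12.3 and 12.5 with 25 nM and 10.9, 10.8 and 11.2 with 50 nM. The 3 groups did not overlap, with the 25 nM libraries highest (log2FC 0.43, SE 0.04, adjusted p = 7.95e-05) and the 50 nM libraries between (log2FC 0.22, SE 0.04, adjusted p = 0.00205). ORC2, a core subunit, rose at 25 nM (log2FC 0.15) and had a log2FC of 0.07 at 50 nM. Left out singly, 7 libraries (DMSO replicates 1 and 3, 25 nM replicates 1 and 3, and each 50 nM replicate) ended the ORC2 call (adjusted p 0.0514 to 0.149), as did fragment-total scaling, a plain variance model and a fit on only those groups. The settings counted here and below leave aside the replicate block and the stricter threshold. Under quantile normalization the fall of CDT1 at 50 nM was -0.19 (log2FC), and its fall from 25 to 50 nM was not called (log2FC -0.14, adjusted p = 0.074).

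The MCM2-7 ring, whose subunits stand in the complex in equal number, was not uniform in RNA: MCM4 rose at 25 nM, MCM6 fell at both doses, and 5 of 6 subunits fell from 25 to 50 nM. MCM4 was at 18.2, 18.2 and 18.2 FPKM in DMSO, 22.7, 22.4 and 22.8 with 25 nM and 16.9, 18.4 and 17.6 with 50 nM. Each 25 nM library was above the other 6 (log2FC 0.31, SE 0.04, adjusted p = 0.0002), and the log2FC at 50 nM was -0.04. MCM6 (ENSG00000076003, chromosome 2, 135839626-135876426) was at 14.6, 14.1 and 13.9 FPKM in DMSO, 12.5, 12.8 and 13.0 with 25 nM and 9.19, 10.3 and 10.5 with 50 nM. Its 3 groups were separate and ordered by dose, with a fall called at 50 nM (log2FC -0.50, SE 0.05, adjusted p = 5.19e-05) and a smaller one at 25 nM (log2FC -0.15, SE 0.05, adjusted p = 0.0421). MCM2 was at 19.1, 18.4 and 18.9 FPKM in DMSO, 20.1, 20.3 and 21.4 with 25 nM and 16.1, 16.8 and 16.2 with 50 nM. Its 25 nM libraries were highest and its 50 nM libraries lowest, with no overlap (log2FC 0.13, SE 0.04, adjusted p = 0.0204 at 25 nM and log2FC -0.20, SE 0.04, adjusted p = 0.00194 at 50 nM). MCM3 was at 22.4, 22.2 and 21.8 FPKM in DMSO, 22.9, 23.1 and 24.5 with 25 nM and 19.2, 19.9 and 20.3 with 50 nM, and MCM5 was at 7.68, 7.58 and 7.18 FPKM in DMSO, 7.96, 7.60 and 8.60 with 25 nM and 7.05, 7.02 and 6.31 with 50 nM. MCM3 fell at 50 nM against both groups (log2FC -0.16, SE 0.04, adjusted p = 0.00695 against DMSO), and MCM5 was called only against 25 nM (log2FC -0.24, SE 0.06, adjusted p = 0.0178). MCM7, which lay between 49.7 and 50.0 FPKM in DMSO and 54.1 and 61.3 at 25 nM, rose at 25 nM (log2FC 0.18) and had a log2FC of 0.01 at 50 nM. Without DMSO replicate 2 or 3, MCM2 was not called at 25 nM (adjusted p 0.0545 to 0.0803). The calls of MCM6 and MCM7 at 25 nM ended in 6 and 4 of the 9 omissions (adjusted p 0.0532 to 0.13 and 0.0603 to 0.0766), among them each DMSO replicate, and under 4 and 2 settings of scaling, filter or variance model. The MCM5 call between the doses ended without 50 nM replicate 3 (adjusted p 0.0541). Under quantile normalization MCM3 was not called at 50 nM (log2FC -0.07, adjusted p = 0.0923), and fragment totals and upper quartile scaling gave -0.09 and -0.10 (log2FC); its fall between the doses was -0.15 by fragment totals and -0.14 by quantile normalization. The fall of MCM2 at 50 nM ranged from -0.13 by fragment totals to -0.11 with the length trend removed. The exons of MCM2 share 23.6% of their bases with other genes on the other strand, and whether the reads carry strand is not given in the sources used here.

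Helicase activation genes rose in 4 of 6 cases at 25 nM, and CDC45 and GINS4 also at 50 nM. CDC45, which turns the ring into a running helicase (ENSG00000093009, chromosome 22, 19479459-19520612), was at 5.43, 5.03 and 5.33 FPKM in DMSO, 8.18, 7.75 and 8.20 with 25 nM and 6.92, 6.66 and 7.24 with 50 nM. The groups did not overlap, 25 nM being highest (log2FC 0.60, SE 0.05, adjusted p = 3.02e-05) and 50 nM between (log2FC 0.39, SE 0.05, adjusted p = 0.000168). The 4 GINS proteins form 1 complex, yet GINS4 and GINS2 differed in pattern. GINS4 was at 2.31, 2.43 and 2.58 FPKM in DMSO, 3.33, 3.23 and 3.17 with 25 nM and 3.45, 3.43 and 3.66 with 50 nM. Its treated libraries were above DMSO (log2FC 0.40, SE 0.06, adjusted p = 0.000612 at 25 nM and log2FC 0.51, SE 0.06, adjusted p = 9.24e-05 at 50 nM), and its 50 nM libraries were above those at 25 nM, a difference that was not called (log2FC 0.11, SE 0.06, adjusted p = 0.177). GINS2 was at 4.80, 4.79 and 4.57 FPKM in DMSO, 5.38, 5.45 and 6.27 with 25 nM and 4.14, 4.11 and 4.45 with 50 nM. Its 25 nM libraries were above DMSO (log2FC 0.26, SE 0.07, adjusted p = 0.00906), while its 50 nM libraries were below the other 6, called against 25 nM (log2FC -0.42, SE 0.07, adjusted p = 0.00198) and not against DMSO (log2FC -0.15, SE 0.07, adjusted p = 0.072). MCM10, a scaffold of the starting fork, was at 2.85, 2.75 and 2.94 FPKM in DMSO, 3.38, 3.38 and 3.15 with 25 nM and 2.75, 2.71 and 2.96 with 50 nM. It rose at 25 nM (log2FC 0.21, SE 0.06, adjusted p = 0.0168), and its 50 nM and DMSO libraries overlapped. The MCM10 call at 25 nM ended without DMSO replicate 2 or 25 nM replicate 1 (adjusted p 0.0553 to 0.066), and its fall from 25 to 50 nM without 25 nM replicate 1 or 2 or 50 nM replicate 1 or 2 (adjusted p 0.0539 to 0.06). GINS1 and GINS3 had log2FC of 0.12 and 0.18 at 25 nM and 0.03 and 0.13 at 50 nM, none called. After removal of the length trend, GINS2 was called lower at 50 nM (log2FC -0.16, adjusted p = 0.0312), and by fragment totals GINS4 was called higher at 50 than at 25 nM (log2FC 0.21, adjusted p = 0.0352). GINS4 shares 23.6% of its exonic bases with non-coding genes on the other strand, and GINS3 shares 10.9% with another gene on the other strand.

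The polymerases and primase moved apart, with POLE, POLE2 and POLA2 higher and PRIM1 and POLA1 lower at 50 nM. POLE, the catalytic subunit of the leading-strand polymerase epsilon (ENSG00000177084, chromosome 12, 132623753-132687365), was at 6.49, 6.12 and 5.81 FPKM in DMSO, 7.64, 7.45 and 7.20 with 25 nM and 9.59, 8.84 and 8.14 with 50 nM. The groups were separate and ordered by dose (log2FC 0.27, SE 0.07, adjusted p = 0.00758 at 25 nM and log2FC 0.52, SE 0.07, adjusted p = 0.00015 at 50 nM), and POLE was the member called higher at 50 than at 25 nM (log2FC 0.25, SE 0.07, adjusted p = 0.0199). PRIM1, the catalytic primase subunit, was at 12.6, 13.2 and 13.0 FPKM in DMSO, 12.3, 12.0 and 12.5 with 25 nM and 10.1, 10.6 and 10.3 with 50 nM. Each 50 nM library was below the other 6 (log2FC -0.32, SE 0.04, adjusted p = 9.69e-05), and at 25 nM the log2FC of -0.07 was not called, although it was with the length trend removed (log2FC -0.21, adjusted p = 0.00216). Between the doses its fall was -0.25, and -0.15 by fragment totals. PRIM2, the large primase subunit, was at 6.33, 6.02 and 5.59 FPKM in DMSO, 6.92, 7.37 and 7.86 with 25 nM and 5.84, 5.47 and 6.31 with 50 nM. Here the 25 nM libraries were highest (log2FC 0.30, SE 0.07, adjusted p = 0.0072) and 50 nM overlapped DMSO. POLA1, the catalytic subunit of polymerase alpha, was at 2.14, 2.13 and 2.36 FPKM in DMSO, 2.43, 2.34 and 2.60 with 25 nM and 1.86, 1.56 and 2.06 with 50 nM. The 50 nM libraries were lowest (log2FC -0.27, SE 0.10, adjusted p = 0.0432), and the fall from 25 nM was also called (log2FC -0.42, SE 0.10, adjusted p = 0.0128). POLA2, its B subunit, rose at both doses (log2FC 0.25 and log2FC 0.29). POLE2, the B subunit of polymerase epsilon, rose at 50 nM (log2FC 0.30) and missed the threshold at 25 nM (log2FC 0.24, SE 0.09, adjusted p = 0.0506). The delta catalytic subunit POLD1 had a log2FC of 0.07 and 0.00. The POLA1 call against DMSO ended in 7 omissions, of each DMSO replicate and of replicates 1 and 2 at each dose (adjusted p 0.0519 to 0.14), and with the length trend removed, with fragment-total or upper-quartile scaling, or fitted on only those groups. Under quantile normalization the POLA1 fall was -0.45. POLE2 at 50 nM was not called under quantile normalization (log2FC 0.13, adjusted p = 0.207), nor without DMSO replicate 3 or 50 nM replicate 1 (adjusted p 0.0586 to 0.0667); at 25 nM it was called under 4 settings, among them quantile normalization (log2FC 0.23, adjusted p = 0.0471). After removal of the length trend, POLE had a log2FC of 0.60 at 25 nM and 0.80 at 50 nM. POLE was not called at 50 against 25 nM without 50 nM replicate 1 or 2 (adjusted p 0.0515 to 0.0706) or with the length trend removed. POLA2 and PRIM1 share 35.1% and 21.6% of their exonic bases with other genes, so reads of those genes may be counted in them.

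**Figure D3:**
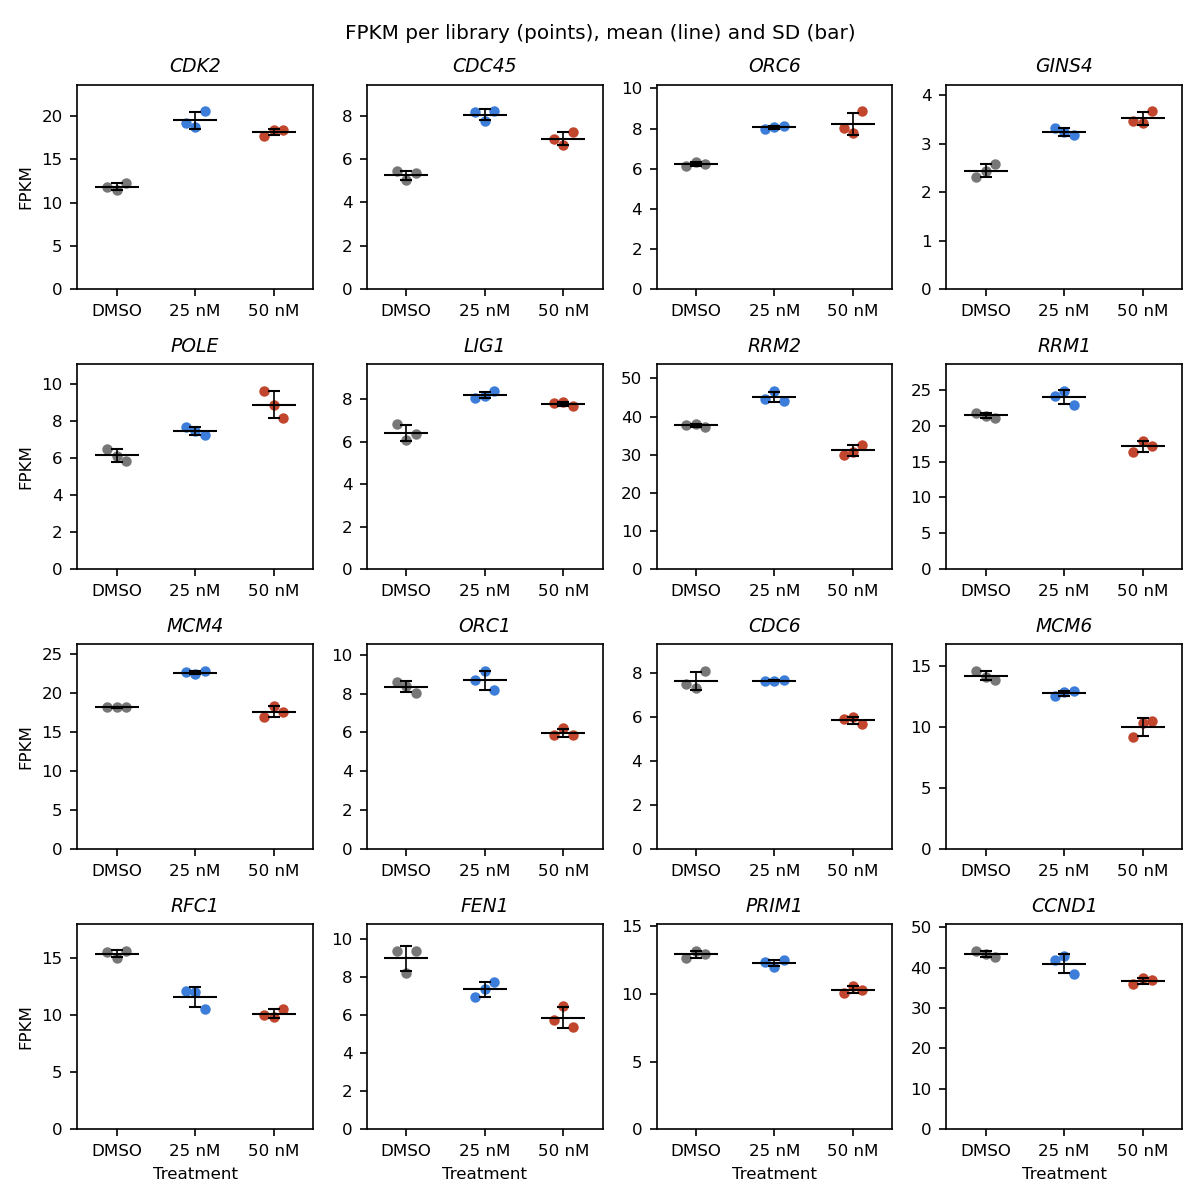
FPKM of 16 genes in DMSO, 25 nM and 50 nM: each point is a library, the line the mean and the bar the SD of 3 libraries, with each axis starting at 0. CDK2, CDC45, ORC6, GINS4, POLE and LIG1 are above DMSO at both doses, RRM2, RRM1 and MCM4 peak at 25 nM, and ORC1, CDC6, MCM6, RFC1, FEN1, PRIM1 and CCND1 are lowest at 50 nM.

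The clamp PCNA was not called in any comparison of the main test, whereas the subunits of its loader divided. PCNA was between 84.6 and 88.9 FPKM in DMSO, 85.1 and 103 at 25 nM and 80.9 and 87.9 at 50 nM, with log2FC 0.10 (95% interval -0.06 to 0.26) and -0.01 (95% interval -0.17 to 0.15). With the length trend removed, PCNA was called lower at 50 nM (log2FC -0.21, adjusted p = 0.00242). RFC1, the large subunit of the clamp loader (ENSG00000035928, chromosome 4, 39287456-39366375), was at 15.5, 15.0 and 15.6 FPKM in DMSO, 12.1, 12.1 and 10.6 with 25 nM and 10.01, 9.80 and 10.5 with 50 nM. Its treated libraries were all below DMSO (log2FC -0.41, SE 0.06, adjusted p = 0.000422 at 25 nM and log2FC -0.60, SE 0.06, adjusted p = 2.97e-05 at 50 nM). RFC2 was at 32.2, 30.5 and 32.4 FPKM in DMSO, 38.5, 38.2 and 42.4 with 25 nM and 34.0, 33.2 and 35.5 with 50 nM. RFC5 was at 17.4, 17.6 and 17.2 FPKM in DMSO, 22.2, 19.6 and 20.9 with 25 nM and 17.2, 18.2 and 18.1 with 50 nM. Both of these small subunits rose at 25 nM (RFC2 log2FC 0.32, SE 0.05, adjusted p = 0.000768; RFC5 log2FC 0.26, SE 0.05, adjusted p = 0.0019) and were not called at 50 nM, with log2FC 0.11 and 0.03. RFC3 was at 11.2, 11.1 and 11.4 FPKM in DMSO, 13.3, 12.5 and 12.3 with 25 nM and 9.68, 10.5 and 10.1 with 50 nM. Its 25 nM libraries were highest and its 50 nM libraries lowest (log2FC 0.17, SE 0.05, adjusted p = 0.0114 and log2FC -0.16, SE 0.05, adjusted p = 0.0145). RFC4 had log2FC 0.09 and 0.06, not called. RFC3 lost its call at 25 nM when the trend with gene length was removed (adjusted p 0.286), and at 50 nM without DMSO replicate 3 or 50 nM replicate 1 (adjusted p 0.0516 to 0.0543) or under 3 other scalings. After removal of the length trend, RFC2 was 0.17 (log2FC) at 25 nM, and RFC2 was called higher at 50 nM by fragment totals (log2FC 0.18, adjusted p = 0.00567) and quantile normalization (log2FC 0.19, adjusted p = 0.00364). The further fall of RFC1 from 25 to 50 nM (log2FC -0.19, SE 0.06, adjusted p = 0.0342) ended in 7 of the 9 omissions (adjusted p 0.0514 to 0.108), all but those of replicate 3 at either dose, and under 5 other settings. The falls of RFC2, RFC5 and RPA1 between the doses were not called under quantile normalization either. RFC5 shares 10.6% of its exonic bases with genes on the other strand.

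Replication protein A, the trimer that coats single strands, also divided. RPA1, its large subunit, was at 23.8, 23.9 and 24.6 FPKM in DMSO, 21.3, 22.3 and 21.6 with 25 nM and 19.4, 19.6 and 19.6 with 50 nM. The groups were separate and fell by dose (log2FC -0.15, SE 0.03, adjusted p = 0.00541 at 25 nM and log2FC -0.30, SE 0.03, adjusted p = 6.89e-05 at 50 nM). RPA2 was at 14.8, 14.9 and 14.6 FPKM in DMSO, 18.7, 17.6 and 20.4 with 25 nM and 14.7, 14.3 and 15.6 with 50 nM. Each 25 nM library was above the other 6 (log2FC 0.35, SE 0.06, adjusted p = 0.00093), and 50 nM overlapped DMSO. RPA3 was above DMSO in each 25 nM library, which was not called (log2FC 0.20, SE 0.08, adjusted p = 0.06) but was under upper quartile scaling (log2FC 0.22, adjusted p = 0.0334). With the length trend removed, RPA1 was -0.09 and -0.19 (log2FC) at the doses, RPA2 was 0.18 at 25 nM, and RPA2 was called lower at 50 nM (log2FC -0.11, adjusted p = 0.0488).

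The 2 enzymes that finish Okazaki fragments went opposite ways. FEN1, the flap nuclease that trims them (ENSG00000168496, chromosome 11, 61792637-61797244), was at 9.36, 8.21 and 9.37 FPKM in DMSO, 6.97, 7.35 and 7.73 with 25 nM and 5.76, 6.47 and 5.38 with 50 nM. The treated libraries were all below DMSO, with the lowest values at 50 nM (log2FC -0.28, SE 0.08, adjusted p = 0.0145 at 25 nM and log2FC -0.61, SE 0.08, adjusted p = 0.000173 at 50 nM). LIG1, the ligase that seals them, was at 6.84, 6.08 and 6.35 FPKM in DMSO, 8.09, 8.14 and 8.39 with 25 nM and 7.84, 7.87 and 7.68 with 50 nM. Its treated libraries were all above DMSO (log2FC 0.35, SE 0.05, adjusted p = 0.000421 at 25 nM and log2FC 0.28, SE 0.05, adjusted p = 0.00109 at 50 nM). The FEN1 call at 25 nM ended without DMSO replicate 1, DMSO replicate 3 or 25 nM replicate 1 (adjusted p 0.0512 to 0.056).

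All 4 nucleotide supply genes rose at 25 nM, and 3 of them fell below DMSO at 50 nM, although the TK1 fall was not called under 3 other scalings. RRM2, the S-phase subunit of ribonucleotide reductase (ENSG00000171848, chromosome 2, 10122328-10131419), was at 37.8, 37.9 and 37.3 FPKM in DMSO, 44.6, 46.7 and 44.1 with 25 nM and 29.9, 30.8 and 32.6 with 50 nM. The groups did not overlap, 25 nM being highest (log2FC 0.26, SE 0.04, adjusted p = 0.000847) and 50 nM lowest (log2FC -0.28, SE 0.04, adjusted p = 0.000407). RRM1, the large subunit of the same enzyme, was at 21.8, 21.4 and 21.1 FPKM in DMSO, 24.2, 24.8 and 22.9 with 25 nM and 16.4, 17.9 and 17.1 with 50 nM. It followed the same order (log2FC 0.16, SE 0.05, adjusted p = 0.0161 and log2FC -0.32, SE 0.05, adjusted p = 0.000271). TK1, which salvages thymidine, was at 72.3, 70.3 and 69.5 FPKM in DMSO, 76.5, 76.4 and 89.1 with 25 nM and 60.8, 66.0 and 59.6 with 50 nM. Its groups were separate in that order too (log2FC 0.19, SE 0.07, adjusted p = 0.0378 and log2FC -0.19, SE 0.07, adjusted p = 0.0324). TYMS, which makes thymidylate, was at 12.4, 12.9 and 12.5 FPKM in DMSO, 15.1, 14.6 and 17.0 with 25 nM and 14.1, 13.9 and 14.6 with 50 nM. It was above DMSO at both doses (log2FC 0.30, SE 0.06, adjusted p = 0.00212 and log2FC 0.17, SE 0.06, adjusted p = 0.027), and the doses overlapped. TYMS shares 46.6% of its exonic bases with ENOSF1 and TYMSOS on the other strand, so its value is uncertain without strand. RRM2 shares 20.2% with a non-coding gene on its own strand. Among single omissions, the calls of RRM1 at 25 nM ended without DMSO replicate 3 or 25 nM replicate 2 (adjusted p 0.0525 to 0.0585). Those of TK1 ended in 5 at 25 nM, of each DMSO replicate, 25 nM replicate 3 and 50 nM replicate 1 (adjusted p 0.0505 to 0.106), and in 5 at 50 nM, of each DMSO replicate and 50 nM replicates 1 and 3 (adjusted p 0.0612 to 0.102). TYMS was not called at 50 nM without DMSO replicate 1 or 3 or 50 nM replicate 1 or 3 (adjusted p 0.054 to 0.082). The TK1 fall at 50 nM was also lost by fragment totals (log2FC -0.12, adjusted p = 0.107), upper quartile scaling (log2FC -0.12, adjusted p = 0.108), quantile normalization (log2FC -0.09, adjusted p = 0.0927) and a plain variance model, and with the length trend removed was -0.33 and called. The TK1 rise at 25 nM was lost under 4 settings, among them quantile normalization (log2FC 0.08, adjusted p = 0.146), and its fall between the doses was -0.16 under that setting. RRM2 was 0.16 at 25 nM under quantile normalization and -0.18 at 50 nM with the length trend removed, where TYMS was 0.17 and 0.11. With the trend with gene length removed, TK1 had a log2FC of 0.01 at 25 nM (adjusted p = 0.905).

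In G1/S control, CDK2 had the largest rise of all 44 genes at each dose. CDK2, the kinase that cyclin E activates (ENSG00000123374, chromosome 12, 55966769-55972784), was at 11.8, 11.4 and 12.3 FPKM in DMSO, 19.1, 18.8 and 20.6 with 25 nM and 17.7, 18.4 and 18.4 with 50 nM. The 6 treated libraries were all above DMSO (log2FC 0.71, SE 0.05, adjusted p = 7.77e-06 at 25 nM and log2FC 0.61, SE 0.05, adjusted p = 7.23e-06 at 50 nM), 1.65 and 1.53 times the DMSO mean. It shares 16.8% of its exonic bases with PMEL and a non-coding gene on the other strand. CCND1, cyclin D1, which starts the release of E2F through CDK4 and CDK6, was at 44.1, 43.4 and 42.7 FPKM in DMSO, 41.8, 42.8 and 38.3 with 25 nM and 35.8, 37.4 and 36.8 with 50 nM. Its 50 nM libraries were below the other 6 (log2FC -0.24, SE 0.05, adjusted p = 0.00155), and its 25 nM and DMSO libraries overlapped. The CCND1 difference between the doses (log2FC -0.16, SE 0.05, adjusted p = 0.0276) was not called without 25 nM replicate 1 or 2 or 50 nM replicate 1 or 3 (adjusted p 0.0579 to 0.0908), and turned to 0.01 under quantile normalization; 5 further settings ended it. The CCND1 value at 50 nM was -0.15 with the length trend removed. At 25 nM, CCND1 was called lower than DMSO under quantile normalization (log2FC -0.19, adjusted p = 0.0133). CCND1 shares 10.3% of its exonic bases with LTO1 on the other strand. CCNE1, a cyclin E, rose at 50 nM (log2FC 0.25), not called without DMSO replicate 1 or 2 or 50 nM replicate 1 (adjusted p 0.0626 to 0.0695). CCNE2, the other cyclin E, was at 0.454, 0.348 and 0.382 FPKM in DMSO, 0.267, 0.220 and 0.226 with 25 nM and 0.229, 0.272 and 0.309 with 50 nM; it was not tested, and all 6 treated libraries were below DMSO. CCNE2 shares 37.1% of its exonic bases with other genes on the other strand, mostly INTS8. E2F1 itself was not called, with log2FC -0.01 (95% interval -0.19 to 0.18) and -0.03 (95% interval -0.22 to 0.15).

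Other replication genes outside the 45, 40 in a separate list and all tested, are given with their log2FC in parentheses, 25 nM first. At 25 nM 19 rose and 7 fell (26.3% and 25.8% of all tested genes did), at 50 nM 15 rose and 12 fell (29.2% and 31.5%), and from 25 to 50 nM 4 rose and 14 fell (14.7% and 18.8%), with medians of 0.11, 0.02 and -0.08. CHTF18, of the alternative clamp loader, rose most, from 5.92 ± 0.233 to 14.0 ± 1.40 and 20.5 ± 1.60 FPKM (log2FC 1.22, SE 0.08, adjusted p = 7.96e-06 and log2FC 1.77, SE 0.08, adjusted p = 6.71e-07). DTYMK, thymidylate kinase, rose at both doses (0.70 and 0.75), as did the helicase RECQL4 (0.55 and 0.84) and the fork protector DONSON (0.47 and 0.44). POLE4 (0.76) and the histone chaperone ASF1B (0.48) were among the rises at 25 nM, and POLE4 also rose at 50 nM (0.49). From 25 to 50 nM ASF1B fell (-0.56), as did MCMBP (-0.33) and POLE3 (-0.39). ASF1A fell at both doses (-0.55 and -0.52), as did DBF4 (-0.29 and -0.16), TOPBP1 (-0.29 and -0.39) and POLD3 (-0.26 and -0.30). CHTF8 (-0.54), MCMBP (-0.36) and ORC4 (-0.34) were among the falls at 50 nM. At 25 nM CHTF8 and ORC4 were also called lower (-0.20 each). Those calls ended without DMSO replicate 1 for CHTF8 (adjusted p 0.0534) and with the length trend removed for ORC4 (adjusted p 0.803). The clamp unloader ATAD5 (0.61), CHTF18 (0.55), RECQL4 (0.29) and TICRR (0.39) were the 4 called higher at 50 than at 25 nM. The TICRR call ended without 50 nM replicate 1 (adjusted p 0.0596). DONSON and CHTF8 share 16.9% and 12.9% of their exonic bases with other genes. The DBF4 call at 50 nM ended without DMSO replicate 2 or 3 or 50 nM replicate 1 or 2, with adjusted p from 0.0706 to 0.115, and under 4 other scalings. After removal of the length trend, TOPBP1 was -0.19 at 25 nM, and POLD3 and ORC4 were -0.19 and -0.16 at 50 nM; the MCMBP fall between the doses was -0.22 under quantile normalization.

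**Figure D4:**
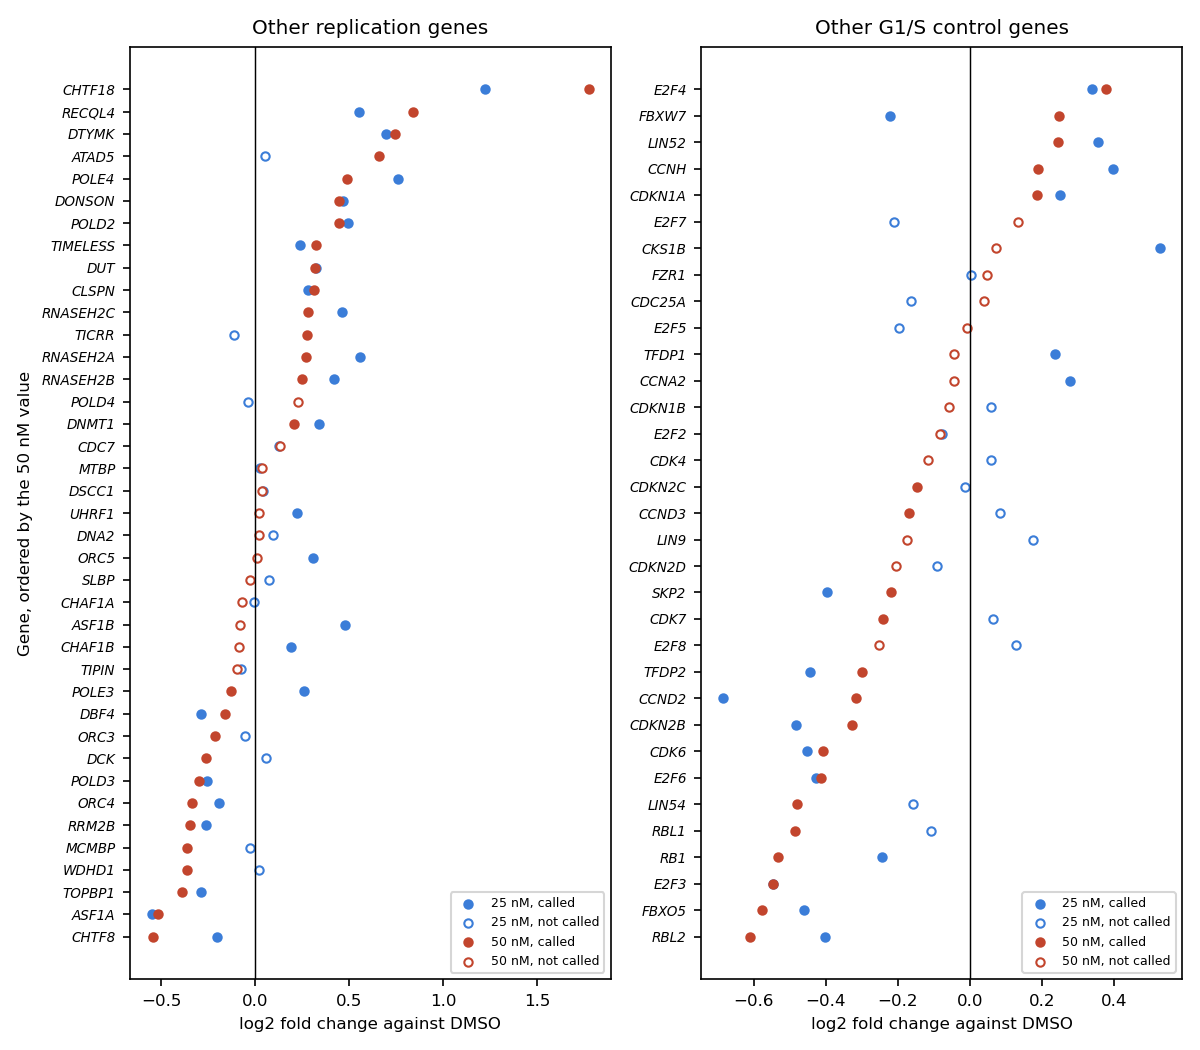
Log2 fold change against DMSO of other replication genes (left, all but 1 of the 40) and 33 other G1/S control genes (right) at 25 nM (blue) and 50 nM (red), ordered by the 50 nM value; filled points are called. CHTF18 lies far right at 1.22 and 1.77, and E2F4 at the top right of the other panel at 0.34 and 0.38.

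Other G1/S control genes, 36 listed and 33 tested, divided as follows: 7 rose and 11 fell at 25 nM (26.3% and 25.8% of all tested genes did), 5 rose and 15 fell at 50 nM (29.2% and 31.5%), and 3 rose and 12 fell from 25 to 50 nM (14.7% and 18.8%), with medians of -0.09, -0.17 and -0.11. The retinoblastoma gene RB1 was at 22.8 ± 0.364 FPKM in DMSO, 19.3 ± 2.40 at 25 nM and 15.7 ± 0.159 at 50 nM, a fall at both doses (log2FC -0.24, SE 0.08, adjusted p = 0.026 and log2FC -0.53, SE 0.08, adjusted p = 0.000321), although the 25 nM call ended without any 1 of the DMSO replicates (adjusted p 0.0585 to 0.0767). E2F3 (-0.55 and -0.55) and E2F6 (-0.43 and -0.41) fell at both doses and E2F4 rose (0.34 and 0.38). Cyclin D2, CCND2, fell at 25 nM (-0.68) and less at 50 nM (-0.32). TFDP2, an E2F partner, fell at both doses (-0.44 and -0.30), the latter not called with the length trend removed (adjusted p 0.32). FBXO5, which inhibits the anaphase-promoting complex, fell at both doses (-0.46 and -0.58). The CDK subunit CKS1B (0.53), cyclin A2 (CCNA2, 0.28) and CCNH (0.40) rose at 25 nM. CCNH also rose at 50 nM (0.19), not called without DMSO replicate 2 or 3 or 50 nM replicate 1 (adjusted p 0.0507 to 0.0657). From 25 to 50 nM CKS1B (-0.46), CCNA2 (-0.32), the E2F partner TFDP1 (-0.28) and CDK7 (-0.30) were among 12 that fell, and CCND2 (0.37), the ubiquitin ligase subunit FBXW7 (0.47) and E2F7 (0.34) were the 3 that rose. The E2F7 call ended without 50 nM replicate 1 (adjusted p 0.0605). FBXW7 (0.25) and LIN52 (0.24) rose at 50 nM. At 25 nM LIN52 also rose (0.36), and FBXW7 fell (-0.22), which was not called with the length trend removed (adjusted p 0.996). The CDK inhibitor p21, CDKN1A, was at 181 ± 5.35, 216 ± 7.98 and 207 ± 5.44 FPKM and rose at both doses (log2FC 0.25, SE 0.04, adjusted p = 0.00133 and log2FC 0.19, SE 0.04, adjusted p = 0.00498), the former not called under quantile normalization (adjusted p 0.185). The inhibitor p27, CDKN1B, had log2FC 0.06 and -0.06, and the kinase CDK4 0.06 and -0.12, none called. CDK4 shares 43.2% of its exonic bases with TSPAN31 on the other strand. CCNH shares 22.3% with RASA1 and a further gene on the other strand, and CCND2 shares 13.8% with other genes. The kinase CDK6 fell at both doses (-0.45 and -0.41), not called at 25 nM without DMSO replicate 3 (adjusted p 0.0628) or at 50 nM without DMSO replicate 2 or 3 or 50 nM replicate 2 or 3 (adjusted p 0.0586 to 0.0764). With the length trend removed, neither CDK6 call nor the 25 nM call of RB1 held. The 50 nM call of CDK6 was also lost by fragment totals (adjusted p = 0.0702), upper quartile scaling (adjusted p = 0.0562) and quantile normalization (adjusted p = 0.05). Without 25 nM replicate 3 the 25 nM values of RB1 and CDK6 were -0.14 and -0.28. After removal of the length trend, TFDP2, CCNA2 and CDKN1A were -0.18, 0.17 and 0.16 at 25 nM, and CCND2 and FBXW7 were -0.18 and 0.46 at 50 nM. Between the doses, quantile normalization gave -0.27 for CKS1B, -0.18 for CCNA2, -0.13 for TFDP1 and -0.20 for CDK7, all still called.

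The 4 genes checked that mark cycling cells in G2 and mitosis, outside the 45, were as follows. MKI67 (log2FC -0.40, SE 0.11, adjusted p = 0.0132) and TOP2A (log2FC -0.38, SE 0.07, adjusted p = 0.0016) fell at 50 nM and were not called at 25 nM. After removal of the length trend MKI67 was not called (log2FC -0.15, adjusted p = 0.0698) and TOP2A was -0.25. CDK1 rose at 25 nM (0.17), not called under quantile normalization (log2FC 0.08, adjusted p = 0.161), and fell at 50 nM (-0.17; -0.10 by fragment totals), and CCNB1 rose at both doses (0.31 and 0.20), the former 0.19 with the length trend removed. The sum of these markers was 238 to 245 FPKM in DMSO, 234 to 264 at 25 nM and 196 to 213 at 50 nM; its part in the results was not tested. Gene length moved with the changes over the transcriptome: across 11722 coding genes the log2FC and length had a Spearman correlation of -0.37 at 25 nM, and across the 44 genes -0.05, in both cases over genes that share libraries. The median length of the 45 genes was 4118 bases, against 5056 for coding genes. With the length trend removed from each library, 22 of the 44 rose and 5 fell at 25 nM, 12 rose and 18 fell at 50 nM, and 0 rose and 23 fell from 25 to 50 nM. Of all genes with a length, 28.6% rose and 25.4% fell at 25 nM in that fit, 30.4% and 30.8% at 50 nM, and 17.2% and 19.0% between the doses.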

How the data were processed

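RNA sequencing of ACHN cells was deposited for 3 libraries in each of 3 groups. Per the file headers, 1 deposited table holds FPKM for 30673 genes, although its name speaks of read counts. The values of the other deposited table are log2 FPKM, to which nothing was added. It keeps 18859 genes, those above 0 in each of the 9 libraries, and equals the first within 0.005. The gene positions and lengths used here came from this filtered table. The genome build is hg38 per the submitters' processing notes; the aligner, counter, annotation and strandedness are not given in the sources used here. FPKM values of the 18859 genes with a length were whole multiples of what 1 fragment is worth (within 0.01 fragments), which gave the depth over those genes.

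Fold changes and tests came from limma 3.58.1 in R 4.3.3 on log2(FPKM + 0.1), with a mean trend and robust variance, for genes that reached 0.5 FPKM in 3 or more libraries. All 9 libraries entered 1 fit with group as the only term, and p-values were Benjamini-Hochberg adjusted over all genes tested, called under 0.05. The tests are two-sided. The 22 alternatives concerned the pseudocount, filter, scaling, gene length, variance model, replicate block, single libraries and threshold. Precision is set by 3 libraries per group.

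The members and lists were chosen with earlier results of these data known. Values in every library are given for the gene of each role with the smallest adjusted p, for genes called against their role, and for those called between the doses. Of the further lists, up to 4 called genes per direction and comparison with the smallest p are named, plus CDK4, CDK6, RB1, CDKN1A and CDKN1B. The values of 1 gene that this rule would name are not reported here. Exon overlaps came from GENCODE release 29 and promoters from RefSeq (GRCh38.p14).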

Additional observations from a re-analysis of the deposited data

How the results depend on the processing

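At 25 nM against DMSO, the median log2FC of the 44 genes ranged from 0.12 to 0.20 when 1 library was left out, and the number that fell from 2 to 4. At an adjusted p under 0.01, 15 rose and 2 fell. At 50 nM against DMSO, the median log2FC was 0.0469 by fragment totals, 0.0414 by upper quartile, 0.0195 by quantile normalization and 0.0103 with the length trend removed, and ranged from -0.0391 to 0.0021 with 1 library left out. Over all genes, those scalings gave medians of 0.0725, 0.067, -0.0673 and -0.0145, in that order. From 25 to 50 nM, fragment totals gave 2 higher, 15 lower and a median of -0.11, where the median over all genes was 0.08. Quantile normalization gave a median of -0.14, and -0.05 over all genes. With the length trend removed, 0 were higher and the median was -0.15, against -0.01 over all genes. Leaving out 1 library gave 0 to 1 higher, and an adjusted p under 0.01 gave 0 higher and 17 lower. Over all tested genes, 2288 were higher and 2917 lower from 25 to 50 nM, and 3153 and 1358 by fragment totals. Of the other pathway genes, 20 were called from 25 to 50 nM at an adjusted p under 0.01. The log2FC of RPA2 at 50 nM was -0.11 with the length trend removed, and that of CCND1 between the doses 0.0070 under quantile normalization. The causes were not tested. Of 27 calls in each comparison, 16 (25 nM), 18 (50 nM) and 14 (between the doses) held under every alternative run.

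The replicate numbers gave no clear pairing of the libraries. Same-numbered libraries had correlations of -0.047 to 0.079, and differently numbered ones of -0.11 to 0.06. The highest, 0.079, was between replicate 1 at 25 nM and replicate 1 at 50 nM. In 0 of 9 libraries was the own number the best match in both of the other groups. With the replicate block, 21 rose and 3 fell at 25 nM, 12 and 15 at 50 nM, and 1 and 25 between the doses. The block ended the calls of ORC2, MCM6, MCM7 and TK1 at 25 nM, TK1 at 50 nM and RFC1 between the doses, with adjusted p from 0.0534 to 0.0674. With the block and the length trend removed, the median was 0.0103 at 50 nM and -0.15 between the doses, 0 genes were higher between the doses, and PCNA had a log2FC of -0.11 at 25 nM.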
